A study of Mus musculus with 6 samples.

Results

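The 10 SOX genes described here are Sox4, Sox11 and Sox12 (the SoxC group), Sox9 and Sox10 (SoxE), Sox7, Sox17 and Sox18 (SoxF), and Sox6 and Sox13 (SoxD). They were picked by symbol from the 55291 gene symbols in the count tables, and they are 10 of the 20 Sox family genes listed there. They were selected on earlier results of these same libraries, above all the level of Sox11 in each group, so their differences between groups are given as descriptions and not as tests. Of the 10 genes, 9 passed the expression filter and Sox17 did not.

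RNA was measured in 6 libraries, 2 for each of 3 sorted populations: TEB-distal Gpr125+ cells, nipple-proximal Gpr125+ cells and Gpr125-negative cells. Every mouse carried the reporter genotype Adgra3-lz/+ on an FVB/N background, in which 1 copy of Adgra3, the gene for the adhesion receptor Gpr125, has lacZ in place of several exons and makes a fusion of Gpr125 with β-galactosidase. The labels give an age of 6 weeks, in puberty, and each sample pooled both abdominal glands of 5 mice. The methods of the study give a range of ages around this and fewer mice per preparation. All cells were sorted for high surface CD49f (integrin α6) after removal of cells positive for CD31, CD45 or Ter119, and were split by FDG, a substrate that fluoresces when β-galactosidase cleaves it. TEB-distal cells came from the part of the gland beyond the lymph node, where terminal end buds (TEBs) lead the growing ducts, and nipple-proximal cells came from the other side of the node. The labels give no region for either Gpr125-negative library.

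SOX proteins bind DNA through an HMG box, a domain that sits in the minor groove and bends the helix, and most act together with partner factors. The SoxC genes are expressed in embryonic progenitor cells and neurons. Sox9 and Sox10 act in progenitor states of the mammary epithelium and also in cartilage (Sox9) and in neural crest derivatives such as glia and melanocytes (Sox10). The SoxF genes are known for the development of blood and lymphatic vessels, and SoxD proteins lack an activation domain of their own.

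The HMG-box coding sequences of Sox11, Sox4 and Sox9 are shown because the levels of these genes are set against each other, and because reads from near-identical stretches could be counted for the wrong gene. Each has 237 bases (79 codons), is written 5′ to 3′ on the coding strand and was read from the GENCODE M21 transcripts of GRCm38. Capitals mark the bases that differ from Sox11.
Sox11: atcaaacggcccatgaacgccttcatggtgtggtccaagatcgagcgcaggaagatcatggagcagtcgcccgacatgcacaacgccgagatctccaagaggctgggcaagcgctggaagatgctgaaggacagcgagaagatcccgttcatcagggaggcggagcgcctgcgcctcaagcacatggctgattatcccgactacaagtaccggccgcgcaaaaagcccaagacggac
Sox4: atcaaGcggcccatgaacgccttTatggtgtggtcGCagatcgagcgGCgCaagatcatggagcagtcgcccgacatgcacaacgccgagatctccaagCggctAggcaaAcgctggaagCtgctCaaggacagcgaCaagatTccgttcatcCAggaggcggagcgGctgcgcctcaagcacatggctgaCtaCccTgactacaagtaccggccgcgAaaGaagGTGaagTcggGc
Sox9: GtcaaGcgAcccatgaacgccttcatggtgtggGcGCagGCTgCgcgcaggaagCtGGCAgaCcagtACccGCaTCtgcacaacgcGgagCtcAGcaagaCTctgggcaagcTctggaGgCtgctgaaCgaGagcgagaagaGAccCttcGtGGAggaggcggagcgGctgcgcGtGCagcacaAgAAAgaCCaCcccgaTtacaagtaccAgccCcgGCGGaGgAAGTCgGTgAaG
Over this box Sox4 shared 88.6% of its bases with Sox11 and 91.1% of the encoded residues. Sox9 shared 71.3% of the bases and 58.2% of the residues, and Sox10 67.1% and 58.2%. The longest run of bases that a whole Sox4 transcript shared exactly with the Sox11 transcript was 48. Both Sox11 (chromosome 12, 27334264 to 27342574, minus strand, GRCm38) and Sox4 (chromosome 13, 28948919 to 28953713, minus strand) are annotated as 1 exon, of 8311 and 4795 bases. Sox12 (chromosome 2, 152393611 to 152398063, minus strand) is likewise 1 exon, of 4453 bases. The exon of Sox4 shares bases with Gm26735 on the other strand, and counting ignored strand, so reads of these genes cannot be told apart. Sox11 and Sox12 overlap no annotated gene.

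Total counts ran from 20134890 to 37296640 per library, and 3 counts, taken as the smallest level the depth can show, were worth 0.0645 to 0.147 CPM (counts scaled to library size after TMM). This floor and all counting intervals cover counting error only. Adgra3 went against the labels, as 385 and 142 counts were found in TEB-distal and 391 and 262 in nipple-proximal libraries against 1658 and 550 where the label is Gpr125-negative, and in CPM the TEB-distal libraries (14.99 and 4.83) were below both of the latter (35.6 and 18.6) while the nipple-proximal ones (19.2 and 12.3) overlapped with them. Every direction against the libraries labelled Gpr125-negative carries that limit. The 2 libraries labelled Gpr125-negative were also the least alike, with a Pearson correlation of log2 CPM of 0.733 across the 17268 genes tested, against 0.791 for TEB-distal and 0.933 for nipple-proximal libraries. The 12 basal mammary markers (keratins, smooth muscle genes, Trp63 and Oxtr) were above 0 counts in every library, with summed levels of 3388 to 3550 CPM in libraries labelled Gpr125-negative, 4011 to 23001 in TEB-distal and 9437 to 14933 in nipple-proximal libraries. The 10 luminal mammary markers were also above 0 in every library, with summed levels of 1522 to 3206 CPM over the 6 libraries.

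The first question was which SOX genes each population expressed. Sox4, Sox9, Sox10 and Sox12 were the 4 of the 10 genes with more than 3 counts in every library, and the other 6 genes were at 0 in at least 1 library. Nipple-proximal library 1 had more than 3 counts for all 10 genes, whereas TEB-distal library 1 and Gpr125-negative library 2 had them for 5 genes each. Gpr125-negative library 1, the most deeply sequenced, had the highest CPM of 6 genes (Sox4, Sox6, Sox7, Sox10, Sox12 and Sox13), while Sox11 was highest in TEB-distal library 1, Sox9 in TEB-distal library 2, Sox17 in nipple-proximal library 1 and Sox18 in Gpr125-negative library 2.

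**Figure D1:**
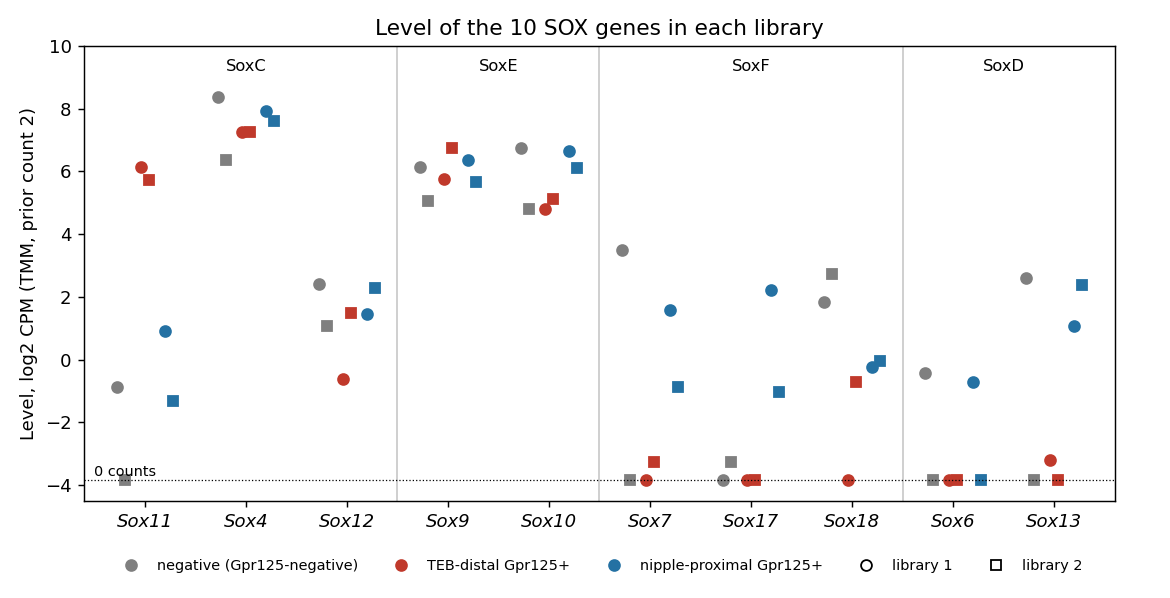
Level of each SOX gene (log2 CPM after TMM scaling, prior count 2) in the 6 libraries, by SOX group. Red stands for TEB-distal and blue for nipple-proximal Gpr125+ libraries, grey for those labelled Gpr125-negative, circles for library 1 and squares for library 2, and the dotted line for 0 counts. Sox11 separates the TEB-distal libraries (5.72 and 6.15) from the other 4 (at most 0.91), whereas the points of Sox4, Sox9 and Sox10 all lie above 4.

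Per kilobase of exon, the scale on which genes can be compared, Sox4 was the highest of all 20 Sox genes in each of the 6 libraries, at 17.2 to 69.3 CPM per kb. Among the 10 genes, the order of the mean levels in TEB-distal cells was Sox4 at 32.1 ± 0.0481 CPM per kb (SD, n = 2), Sox9 at 19.4 ± 8.91, Sox10 at 10.3 ± 1.67, Sox11 at 7.45 ± 1.55 and Sox12 at 0.371 ± 0.339. The ranges of neighbours in that order did not overlap, but Sox10 and Sox11 nearly met, at 9.10 and 8.55 in TEB-distal library 1, a gap smaller than either SD. Of the Sox genes outside the selection, Sox8 (8.81 ± 7.95 CPM per kb) lay between Sox10 and Sox11 in mean and overlapped both, and Sox15 (2.68 ± 1.17) lay between Sox11 and Sox12. In nipple-proximal cells the order was Sox4 at 45.6 ± 6.53, Sox10 at 27.7 ± 7.58 and Sox9 at 16.0 ± 5.55 CPM per kb, again with no overlap of ranges. There Sox11, at 0.129 ± 0.126 CPM per kb, came after Sox12 (0.836), Sox13 (0.833), Sox17 (0.522), Sox18 (0.518) and Sox7 (0.510), each of which overlapped with the next in this order, and among the 10 genes Sox6 alone was lower (0.0182). In the libraries labelled Gpr125-negative Sox4 (43.2 ± 36.9), Sox10 (21.9 ± 18.2) and Sox9 (12.5 ± 6.35) came first, and Sox10 overlapped with both of the others.

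Sox11, a SoxC factor of embryonic and neural progenitors, was present at well over the floor in TEB-distal cells and at far lower levels elsewhere. It was counted 1824 and 1552 times in TEB-distal, 37 and 7 times in nipple-proximal and 22 and 0 times in Gpr125-negative libraries. Both TEB-distal libraries were above all 4 others, and the nipple-proximal and Gpr125-negative libraries overlapped. Its mean was 61.9 ± 12.9 CPM (SD, n = 2) in TEB-distal, 1.07 ± 1.05 in nipple-proximal and 0.236 ± 0.334 in Gpr125-negative libraries. The log2 fold change was 5.85 (standard error 1.67) for TEB-distal against nipple-proximal cells, 7.95 (standard error 1.84) for TEB-distal against the libraries labelled Gpr125-negative, and 2.11 (standard error 1.46) for nipple-proximal against those same libraries. The last was 0.42 without nipple-proximal library 1. Without Gpr125-negative library 1 the last became 7.74 and the value of 7.95 became 13.58, which are fitted against a library at 0 and are no bounds. These comparisons share libraries and are not independent of each other. In bulk libraries fewer cells that express a gene and less RNA per cell cannot be told apart.

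Sox4, the SoxC gene that many epithelial progenitors express, was high in every library. Its counts were 3962 and 4528 in TEB-distal, 4911 and 4181 in nipple-proximal and 15467 and 2435 in Gpr125-negative libraries. The TEB-distal libraries were lower than the nipple-proximal ones, and both lay between the 2 libraries labelled Gpr125-negative, which differed 4.03-fold from each other in CPM. The log2 fold change of Sox4 was -0.51 (standard error 0.79) for TEB-distal against nipple-proximal cells and -0.43 (standard error 0.79) against the libraries labelled Gpr125-negative, the second of which was 0.77 without Gpr125-negative library 1. For nipple-proximal cells against the libraries labelled Gpr125-negative it was 0.08 (standard error 0.79), and it turned negative with other size factors (-0.04 with DESeq2 on 4 libraries).

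Sox12, the third SoxC gene and a weaker activator, was low in every library. Its counts were 15 and 80 in TEB-distal, 54 and 102 in nipple-proximal and 245 and 60 in Gpr125-negative libraries, so that the groups overlapped in all 3 comparisons. Its log2 fold change was -1.17 (standard error 1.59) for TEB-distal against nipple-proximal cells, and -1.14 (standard error 1.58) and 0.03 (standard error 1.56) in TEB-distal and nipple-proximal cells against the libraries labelled Gpr125-negative. When libraries were left out in turn the first ran from -2.68 (without TEB-distal library 2) to -0.38 (without TEB-distal library 1) and the second from -2.64 (without TEB-distal library 2) to -0.41 (without Gpr125-negative library 1). The third changed sign in 9 of 14 alternative settings.

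Of all SoxC counts per kilobase, Sox11 made up 20.9% and 16.3% in the 2 TEB-distal libraries. Its share was 0.428% and 0.0940% in the nipple-proximal libraries and 0.0806% in Gpr125-negative library 1. In Gpr125-negative library 2 it had 0 of 2495 SoxC counts, which allows a share of up to 0.120% of the counts. The group means were 18.6 ± 3.30% (SD, n = 2) in TEB-distal, 0.261 ± 0.236% in nipple-proximal and 0.0403 ± 0.0570% in Gpr125-negative libraries. Without scaling for length the TEB-distal shares were 31.4% (95% exact Clopper-Pearson interval 30.2% to 32.7%) and 25.2% (24.1% to 26.3%), because the Sox11 transcript is the longest of the 3. Sox4 made up 78.8% and 82.2% per kilobase in the TEB-distal libraries and at least 97.3% in the other 4, and Sox12 0.321% to 2.58% over all 6. Sox11 stood at 0.266 and 0.198 of the Sox4 level per kilobase in the TEB-distal libraries and at no more than 0.00435 of it in the other 4.

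**Figure D2:**
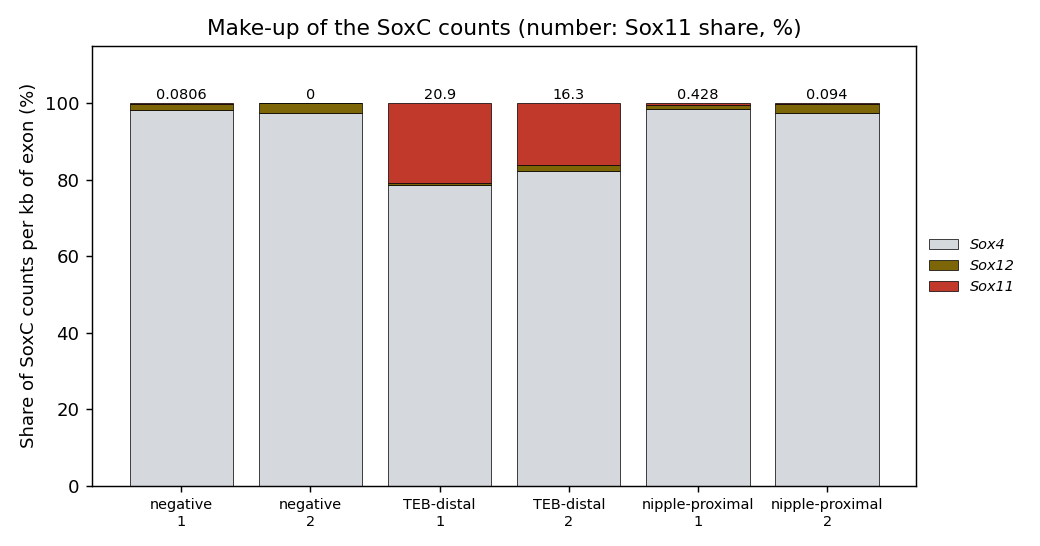
Share of each SoxC gene in the SoxC counts per kilobase of exon (percent, stacked bars from 0 to 100) in each of the 6 libraries, with the Sox11 share printed above each bar. Sox4 (grey) fills most of every bar, and Sox11 (red) takes 20.9% and 16.3% in the TEB-distal libraries and 0% to 0.428% in the other 4.

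Sox9, a SoxE factor that marks progenitor and luminal states in the mammary gland, was well above the floor in every library. The counts were 1392 and 3126 in TEB-distal, 1684 and 1066 in nipple-proximal and 3267 and 978 in Gpr125-negative libraries. The groups overlapped in each comparison, and the mean level ran from 51.6 ± 26.2 CPM in Gpr125-negative to 80.2 ± 36.8 in TEB-distal libraries (SD, n = 2). The log2 fold change was 0.27 (standard error 0.71) for TEB-distal against nipple-proximal cells, 0.64 (standard error 0.71) for TEB-distal against Gpr125-negative and 0.36 (standard error 0.71) for nipple-proximal against Gpr125-negative libraries. The first ran from -0.31 to 0.74 when libraries were left out in turn.

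Sox10, the SoxE factor of neural crest cells that basal mammary cells also express, was lower in TEB-distal than in nipple-proximal libraries. It had 713 and 1028 counts in TEB-distal, 2057 and 1450 in nipple-proximal and 4940 and 816 in Gpr125-negative libraries. The TEB-distal and nipple-proximal libraries did not overlap, while Gpr125-negative library 1 was above and library 2 below both nipple-proximal libraries in CPM. The log2 fold change for TEB-distal against nipple-proximal cells was -1.43 (standard error 0.79), from 31.4 ± 5.08 against 84.5 ± 23.1 CPM (SD, n = 2), and it stayed between -1.71 and -1.13 when libraries were left out in turn. Against the libraries labelled Gpr125-negative it was -1.09 (standard error 0.78) for TEB-distal cells, which became 0.06 without Gpr125-negative library 1. For nipple-proximal cells it was 0.34 (standard error 0.77), which became -0.32 without Gpr125-negative library 2 and 1.48 without library 1 of that group.

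The balance of the 2 SoxE genes therefore differed in direction between the libraries. Per kilobase, Sox9 stood at 1.44 and 2.24 times the Sox10 level in TEB-distal, at 0.604 and 0.542 times in nipple-proximal and at 0.488 and 0.884 times in Gpr125-negative libraries. Sox11 stood at 0.652 and 0.247 of the Sox9 level and at 0.939 and 0.554 of the Sox10 level in the TEB-distal libraries. In the other 4 libraries it was at most 0.0109 of Sox9 and 0.00660 of Sox10. The gene models of Sox9 (chromosome 11, 112782224 to 112787760, plus strand) and Sox10 (chromosome 15, 79154908 to 79165240, minus strand) overlap no other gene.

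**Figure D3:**
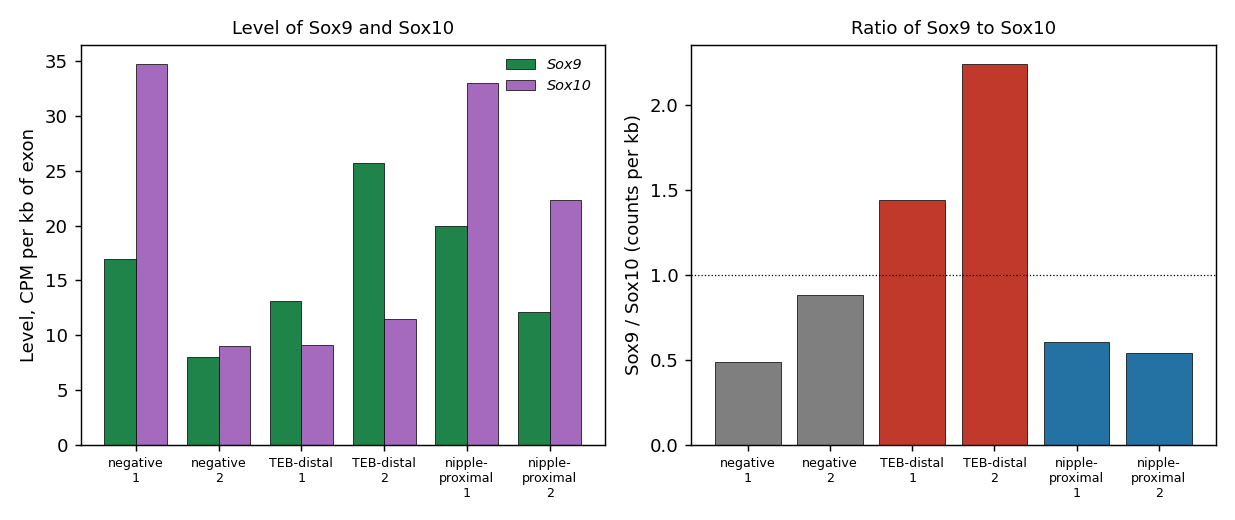
Left, level of Sox9 (green) and Sox10 (purple) in CPM per kilobase of exon in each of the 6 libraries. Right, ratio of Sox9 to Sox10 per kilobase, with a dotted line at 1, which the 2 TEB-distal libraries exceed (1.44 and 2.24) and the other 4 do not (0.488 to 0.884).

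The SoxF genes Sox7, Sox17 and Sox18, factors of the vascular and lymphatic endothelium, were close to 0 in TEB-distal libraries but did not share 1 pattern in the other libraries. Sox7 (chromosome 14, 63943673 to 63950732, plus strand) had 0 and 1 counts in TEB-distal, 59 and 10 in nipple-proximal and 517 and 0 in Gpr125-negative libraries. Its pooled level in TEB-distal cells was 0.0110 of that in nipple-proximal cells (95% counting interval 0.000274 to 0.0631), and the 2 libraries labelled Gpr125-negative were at opposite ends of its range. Sox17 had 0 counts in both TEB-distal, 93 and 9 in nipple-proximal and 0 and 1 in Gpr125-negative libraries. Nipple-proximal cells were thus the 1 group with more than 1 count of Sox17 in a library, and against 3 counts over the group TEB-distal cells were at least 45.0-fold lower. Most of the Sox17 counts came from nipple-proximal library 1, at 4.56 CPM against 0.423 in library 2. The exons of Sox17 (chromosome 1, 4490931 to 4497354, minus strand) share bases with Gm37587 on the other strand, and without strand their reads cannot be told apart.

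Sox18 (chromosome 2, 181669836 to 181671640, minus strand) had 0 and 16 counts in TEB-distal, 16 and 19 in nipple-proximal and 164 and 192 in Gpr125-negative libraries. Unlike Sox7 and Sox17 it was high in both libraries labelled Gpr125-negative, whose level was 5.01 ± 2.10 CPM against 0.839 ± 0.0768 in nipple-proximal and 0.272 ± 0.385 in TEB-distal libraries (SD, n = 2). Its log2 fold change against those libraries was -4.17 (standard error 2.23) in TEB-distal cells and -2.57 (standard error 2.07) in nipple-proximal cells. Between the Gpr125+ populations it was -1.60 (standard error 2.02). Without TEB-distal library 1 that value was -0.56, and without TEB-distal library 2, which held all 16 counts, it was -7.61, which rests on a library at 0 and is not a bound. The value of -4.17 became -3.22 and -10.16 without the same libraries.

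Endothelial markers were read beside the SoxF genes, since they were detected although CD31-positive cells had been removed. The 12 endothelial genes summed to 20.4 and 23.7 CPM in TEB-distal, 273 and 30.2 in nipple-proximal and 1454 and 989 in Gpr125-negative libraries. Pecam1, which encodes CD31, was counted 63 and 158 times in TEB-distal, 550 and 51 times in nipple-proximal and 2017 and 1659 times in Gpr125-negative libraries. Of the 12 genes, Robo4 was at 0 in both TEB-distal libraries, Erg in TEB-distal library 2 and Tek in nipple-proximal library 2, and none was at 0 in the other 3 libraries. Sox7 was at 0 in Gpr125-negative library 2, where the endothelial genes summed to 989 CPM, and Sox17 was at 0 in Gpr125-negative library 1, where they summed to 1454. The part of endothelial RNA in the SoxF values was not tested.

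**Figure D4:**
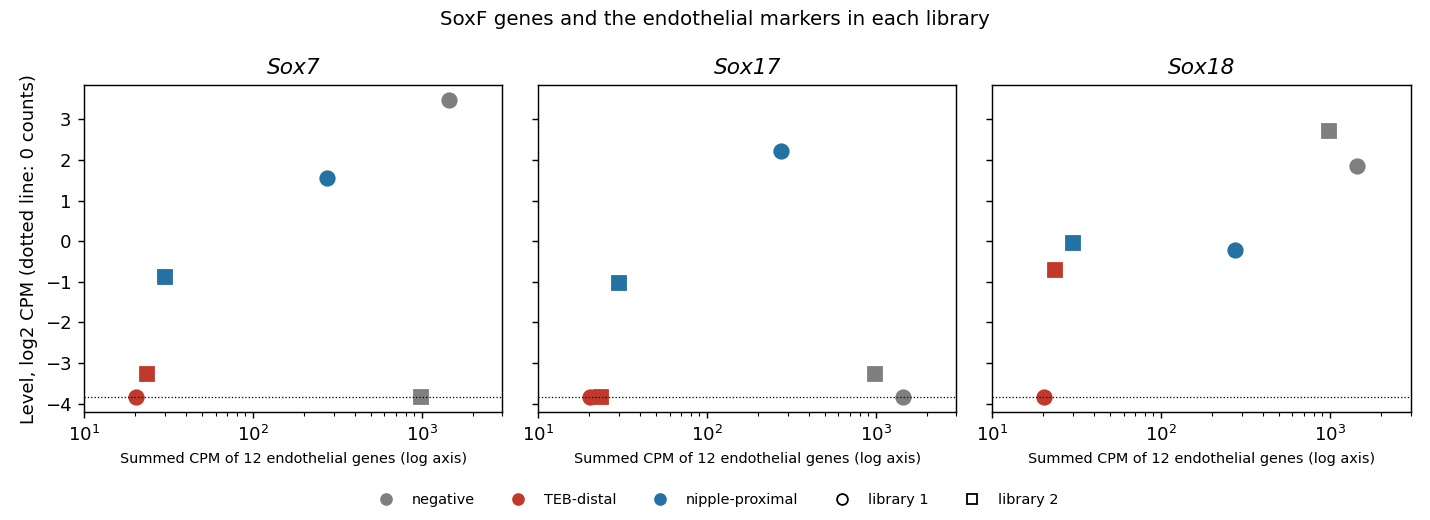
Level of Sox7, Sox17 and Sox18 (log2 CPM) against the summed CPM of 12 endothelial markers (log axis) in the 6 libraries. Colours and symbols are those of the plot of all members, and the dotted line marks 0 counts. The TEB-distal libraries lie at the low end of both axes, and the libraries labelled Gpr125-negative, at 989 and 1454 CPM of endothelial markers, hold high Sox18 but 0 or 1 counts of Sox17.

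The 7 genes that SoxF factors are known to act on or with in vessels (Cldn5, Vcam1, Dll4, Notch1, Cdh5, Nr2f2 and Prox1) were lower in TEB-distal than in nipple-proximal cells in 6 of 7 by fold, with a median log2 fold change of -2.52 against 0.06 over all genes tested. The medians against the libraries labelled Gpr125-negative were -4.85 in the TEB-distal comparison and -2.59 in the nipple-proximal one. Prox1, the lymphatic regulator downstream of Sox18, had 0 and 3 counts in TEB-distal, 31 and 3 in nipple-proximal and 541 and 699 in Gpr125-negative libraries. Cldn5, an endothelial tight junction gene, had 3 and 45 counts in TEB-distal, 245 and 2 in nipple-proximal and 10255 and 1377 in Gpr125-negative libraries. Cldn5 and Cdh5 belong to the endothelial list as well, so the lists are not separate evidence.

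The SoxD genes were detected unevenly. Sox13 (chromosome 1, 133382303 to 133424377, minus strand), a SoxD factor that also binds TCF proteins, had 1 and 0 counts in TEB-distal, 41 and 110 in nipple-proximal and 280 and 0 in Gpr125-negative libraries. Its pooled level in TEB-distal cells was 0.00501 of that in nipple-proximal cells (95% counting interval 0.000126 to 0.0283). For nipple-proximal cells against the libraries labelled Gpr125-negative, the log2 fold change of 0.25 (standard error 2.37) rested on 2 libraries that stood at opposite ends of the range. Sox6 (chromosome 7, 115470872 to 116038796, minus strand) had 0 counts in both TEB-distal, 11 and 0 in nipple-proximal and 31 and 0 in Gpr125-negative libraries, and each library with counts was the first of its group. Against 3 counts over the group, the pooled level of Sox6 was at least 4.85-fold lower in TEB-distal than in nipple-proximal libraries. That value rests on the 11 counts of nipple-proximal library 1 alone. The groups overlap, and without that library both are at 0. Sox5, the usual partner of Sox6, had at most 3 counts in any library.

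In edgeR's quasi-likelihood test across 17268 genes, where a call needed an FDR under 0.1 together with a 2-fold change, 0 of the 9 members tested were called in any of the 3 comparisons, and the share of all genes called was 0% in each. An unadjusted p under 0.05 was reached by 381 genes for TEB-distal against nipple-proximal cells, 1045 for TEB-distal against Gpr125-negative libraries and 613 for nipple-proximal against Gpr125-negative libraries. DESeq2 on the 4 libraries compared, the tool of the study, called Sox11, Sox13 and Sox17 between TEB-distal and nipple-proximal cells, where it called 2.29% of all genes. It called Sox11 and Sox7 for TEB-distal cells against the libraries labelled Gpr125-negative, where it called 4% of genes, and Sox17 for nipple-proximal cells, where it called 2.02%. The Sox7 call rests on Gpr125-negative library 1, as the groups overlap, both have at most 1 count without that library, and the fitted log2 fold change then turns positive (2.18 in edgeR). With 2 libraries against 2 an exact two-sided permutation test cannot give a p below 0.333. The labels do not say that the samples of a group came from separate mice, so these tests measure the spread between samples, which may be technical.

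Counted by overlap alone, 7 of the 10 members did not overlap between TEB-distal and nipple-proximal libraries, Sox11 being higher and Sox4, Sox7, Sox10, Sox13, Sox17 and Sox18 lower in TEB-distal cells. Among all genes tested 33.5% did not overlap in this comparison. Against the libraries labelled Gpr125-negative, 2 members did not overlap for TEB-distal cells (Sox11 higher, Sox18 lower), where 24% of all genes did not. For nipple-proximal cells 2 members did not overlap (Sox17 higher, Sox18 lower), where 30.6% of all genes did not. The median log2 fold change of the 9 tested members was -1.43 for TEB-distal against nipple-proximal cells (the value of Sox10), -1.14 for TEB-distal against Gpr125-negative (Sox12) and 0.08 for nipple-proximal against Gpr125-negative libraries (Sox4), beside 0.06, 0.03 and 0.00 over all genes tested.

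**Figure D5:**
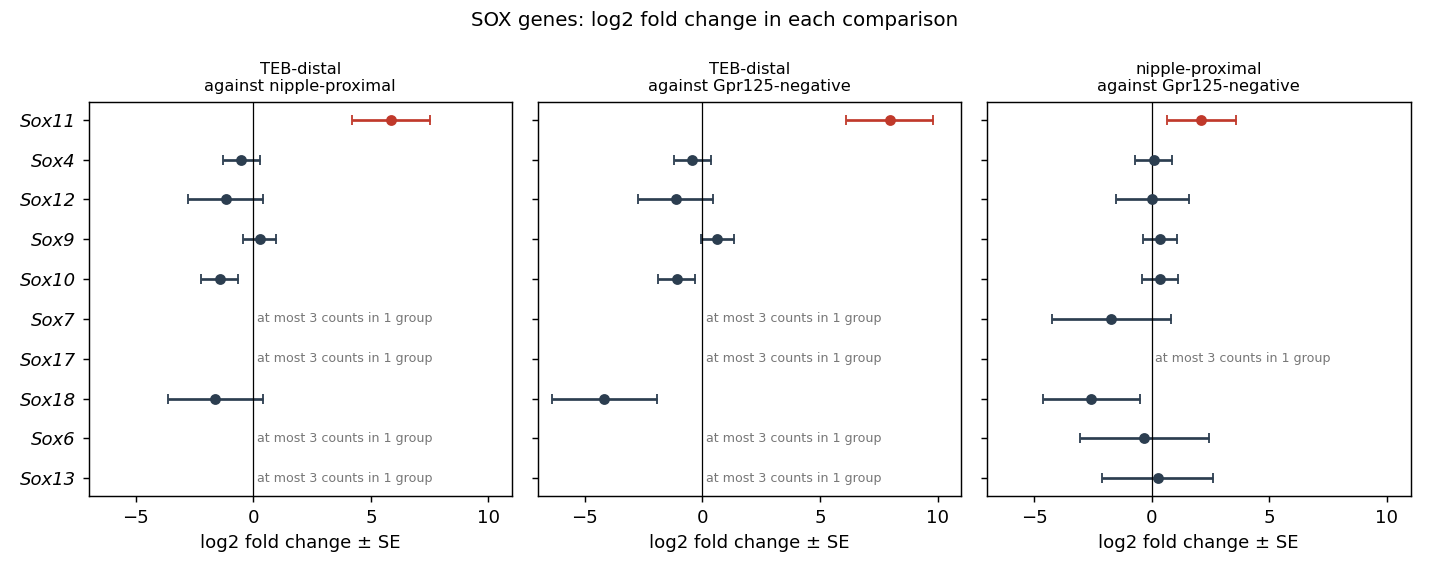
Log2 fold change (points) with its standard error (bars) from edgeR for each SOX gene in the 3 comparisons and genes with at most 3 counts in 1 of the groups have no point. Sox11 (red) lies at 5.85 and 7.95 in the TEB-distal comparisons, and Sox4, Sox10, Sox12 and Sox18 lie below 0 in both of them.

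The 10 Sox genes outside the selection were mostly at or near 0. Sox8, the third SoxE gene, was an exception, with 255 and 1323 counts in TEB-distal, 424 and 1163 in nipple-proximal and 1185 and 960 in Gpr125-negative libraries, and per kilobase it lay among the first 5 Sox genes of every library. Its exons share bases with 2810468N07Rik, as those of Sox15 do with Mpdu1, so both counts are uncertain. Sox15 had 41 and 89 counts in TEB-distal, 38 and 9 in nipple-proximal and 171 and 57 in Gpr125-negative libraries. Sox2 was seen only in Gpr125-negative libraries (5 and 63 counts) and Sox3 only in TEB-distal libraries (2 and 47). Sox30 had 160 counts in Gpr125-negative library 2 and 62 in TEB-distal library 2 but at most 21 elsewhere, and Sox21 at most 22. Sry, Sox1 and Sox14 had 0 counts in all 6 libraries. Of these 10 genes 4 passed the filter, and 0 were called by either edgeR or DESeq2 on 4 libraries.

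The TCF/LEF factors, HMG-box proteins that answer Wnt signals and that some SOX proteins bind, were present at moderate levels. Tcf7l1 had 950 and 2578 counts in TEB-distal, 997 and 692 in nipple-proximal and 849 and 823 in Gpr125-negative libraries, and its log2 fold change for TEB-distal against Gpr125-negative libraries was 1.44 (standard error 0.73). Tcf7l2 had 733 and 456 counts in TEB-distal, 312 and 302 in nipple-proximal and 442 and 186 in Gpr125-negative libraries, with a log2 fold change of 1.48 (standard error 0.86) in the same comparison. Tcf7, which encodes TCF1, differed by -0.20 (standard error 0.76) on the log2 scale between TEB-distal (743 and 336 counts) and nipple-proximal libraries (454 and 510). Unlike Tcf7l1 and Tcf7l2, Tcf7 was lower by fold in TEB-distal than in Gpr125-negative libraries (1264 and 1105 counts). Its log2 fold change there was -0.68 (standard error 0.77), with overlap of the groups. Lef1 had at most 24 counts in a library and was not tested. None of the 3 tested genes was called by edgeR or by DESeq2 on 4 libraries.

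The 9 genes known as SoxC targets or partners were read beside Sox11. Of the 6 that passed the filter, 4 were higher and 2 lower by fold in TEB-distal than in nipple-proximal cells, with a median log2 fold change of 0.70, and 0 were called by edgeR or by DESeq2 on 4 libraries. Tead2, a Hippo pathway factor, had 166 and 223 counts in TEB-distal, 71 and 102 in nipple-proximal and 578 and 132 in Gpr125-negative libraries. Tubb3, a neuronal tubulin, had 213 and 308 counts in TEB-distal, 59 and 116 in nipple-proximal and 74 and 0 in Gpr125-negative libraries. Tead2 and Tubb3 were the 2 of these 9 genes whose TEB-distal and nipple-proximal libraries did not overlap, where 33.5% of all genes tested did not. In CPM, Tubb3 and Ezh2 were higher and Vangl2 lower in TEB-distal cells than in both libraries labelled Gpr125-negative. In that comparison 24% of all genes tested did not overlap. Nipple-proximal cells had Tubb3 and Wnt5a higher and Vangl2 lower than those libraries, where 30.6% did not overlap. Wnt5a, a ligand of the planar polarity pathway, had 1137 and 331 counts in TEB-distal against 514 and 1026 in nipple-proximal libraries. Vangl2, a core planar polarity gene, had 14 and 110 against 58 and 112, so that both genes overlapped between the Gpr125+ populations. In Gpr125-negative libraries Wnt5a had 693 and 420 counts and Vangl2 had 288 and 524. Dcx had 21 counts in nipple-proximal library 2 and 0 in the other 5 libraries, and Pou3f2 and Pou3f3, partners of Sox11 in neurons, had 0 counts in all 6.

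Among 14 targets known for Sox9 or Sox10, 9 passed the filter and 0 were called by edgeR. Their median log2 fold change was 0.86 for TEB-distal against nipple-proximal cells, -0.49 for TEB-distal against Gpr125-negative and -0.50 for nipple-proximal against Gpr125-negative libraries. Col9a1, a cartilage collagen controlled by Sox9, had 788 and 312 counts in TEB-distal, 127 and 22 in nipple-proximal and 83 and 2 in Gpr125-negative libraries, with a log2 fold change of 2.51 (standard error 1.67) between the Gpr125+ populations. Col2a1, the best known Sox9 target in cartilage, had 211 counts in TEB-distal library 1 and at most 1 in the others. Ednrb, the endothelin B receptor of neural crest cells, had 3 and 19 counts in TEB-distal, 277 and 215 in nipple-proximal and 6668 and 5533 in Gpr125-negative libraries. Between the Gpr125+ populations the log2 fold change of Ednrb was -4.93 (standard error 0.95), lower in TEB-distal cells. DESeq2 on 4 libraries called Col2a1 and Ednrb in that comparison, where it called 2.29% of all genes. The Col2a1 call rests on TEB-distal library 1, as the groups overlap, and Col2a1 did not pass the expression filter.

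Dct, a melanocyte enzyme that Sox10 controls, had 4019 counts in Gpr125-negative library 2, 1 in library 1 and 0 in the 4 Gpr125+ libraries. Sox10 itself was not high in Gpr125-negative library 2, at 27.6 CPM against 106.2 in library 1. The 8 Schwann and glial markers summed to 19.8 and 14.8 CPM in TEB-distal, 3.78 and 5.92 in nipple-proximal and 27.0 and 202.6 in Gpr125-negative libraries, with 1 to 5 of the 8 at 0 in each library. The target list and the glial list share 3 genes. The part of glial, melanocyte or endothelial RNA in the values of the SoxE genes and their targets was not tested.

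Markers of other cell types were read beside the Sox11 difference. The 10 fibroblast genes summed to 124.7 and 267.0 CPM in TEB-distal, 82.4 and 63.7 in nipple-proximal and 50.5 and 159.5 in Gpr125-negative libraries. Their median log2 fold change was 2.39 for TEB-distal against nipple-proximal cells. DESeq2 on 4 libraries called 3 of them higher (Col1a2, Fbln1 and Lum) in this comparison, where it called 2.29% of all genes. The 8 leukocyte genes summed to 134.5 and 300.0 CPM in TEB-distal, 189.2 and 108.2 in nipple-proximal and 76.2 and 64.8 in Gpr125-negative libraries. The 8 luminal progenitor genes summed to 359.1 and 869.3 CPM in TEB-distal, 675.5 and 368.8 in nipple-proximal and 897.1 and 603.8 in Gpr125-negative libraries. Their median log2 fold change between the Gpr125+ populations was 1.26, and DESeq2 on 4 libraries called 2 of them higher in TEB-distal cells (Aldh1a3 and Wfdc18). The study reports Fbln1 in basal TEB-distal clusters of single cells, and Aldh1a3 as raised in TEB-distal Gpr125+ cells of these libraries. The 8 hormone-sensing luminal genes summed to 179.9 and 51.8 CPM in TEB-distal, 33.7 and 24.03 in nipple-proximal and 50.9 and 24.7 in Gpr125-negative libraries. Without overlap between TEB-distal and nipple-proximal libraries, 2 of the 8 were higher and 2 lower in the former, where 33.5% of all genes tested did not overlap. Of the 8 genes, 0 were called by edgeR or by DESeq2 on 4 libraries. The 6 pericyte genes summed to 8.45 and 28.2 CPM in TEB-distal, 13.5 and 35.4 in nipple-proximal and 7.65 and 50.9 in Gpr125-negative libraries, and 2 to 4 of the 6 were at 0 in each library, among them the defining gene Rgs5 in both TEB-distal libraries and in Gpr125-negative library 1. The summed levels of the fibroblast, the hormone-sensing luminal and the Schwann and glial lists were higher in both TEB-distal than in both nipple-proximal libraries, as Sox11 was. For the Schwann and glial list they were 19.8 and 14.8 against 3.78 and 5.92 CPM. The part of any of these lists in the Sox11 level was not tested. The antibodies the study lists for flow cytometry include one to CD140a (PDGFRα, a fibroblast marker) labelled like those to CD31, CD45 and Ter119, but the sort described for these samples does not name it.

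Likeness to each member was measured as Pearson's correlation of log2 CPM over the 6 libraries, among 12288 other genes for Sox11 with a mean log2 CPM over 0. With 6 points, of which 2 are TEB-distal and share a group, these values only describe the tables. The 10 genes most like Sox11 were Wdr45 (r = 0.995), Plac8 (0.989), Ctf2 (0.986), Il10rb (0.982), 4933417C20Rik (0.982), Pdp2 (0.976), Pbk (0.969), Gm31070 (0.965), Pag1 (0.965) and Cdkn2aipnl (0.964). Ctf2, which encodes a cytokine of the IL-6 family, had 365 and 280 counts in TEB-distal, 9 and 8 in nipple-proximal and 15 and 1 in Gpr125-negative libraries. Pbk, a mitotic kinase, had 257 and 151 counts in TEB-distal, 35 and 4 in nipple-proximal and 33 and 2 in Gpr125-negative libraries. Pag1, a membrane adaptor, had 430 and 201, 49 and 16, and 34 and 1 counts in the same order. Wdr45, an autophagy gene, followed Sox11 only in shape, with 2267 and 2433 counts in TEB-distal and 1281 and 1091 in nipple-proximal libraries. A correlation over 0.95 with Sox11 was found for 22 genes.

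The 3 genes most like each of the other members were found in the same way. They were Trp53i11, Gpatch3 and Dnajc16 for Sox4, Pold2, Dhrs13 and Coil for Sox12, Ctsz, Ephx1 and Dedd2 for Sox9, and Lad1, Slc35a2 and Clptm1 for Sox10. Correlations over 0.95 were found for 155 genes with Sox4, 62 with Sox12, 41 with Sox9 and 51 with Sox10. For the low genes the 3 most alike were Slc38a4, Keap1 and Mvp for Sox7, Get1, Utp25 and Slc43a3 for Sox18, Trmt1, Ndufa9 and Jag2 for Sox6, and Zfp335, Caskin2 and Kif13b for Sox13. Among the members themselves Sox7 and Sox10 had the highest correlation of log2 CPM (0.968 over 6 libraries) and Sox11 and Sox18 the lowest (-0.860).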

How the data were processed

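RNA from 6 pools of sorted mammary cells was amplified as full-length cDNA (SMART-Seq HT, with no molecular identifiers) and sequenced. Alignment to mm10 by the authors used STAR, HTSeq then counted reads per gene without regard to strand, and the raw counts were deposited. The submitters' processing notes name STAR 2.7.3, and the methods of the paper an older version. The annotation release is not given in the sources used here.

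All 6 libraries entered 1 model in edgeR 4.0.16 (R 4.3.3), with TMM scaling, filterByExpr and the robust quasi-likelihood test, and 17268 genes were tested. A gene was called at an FDR under 0.1 and at least 2-fold. Standard errors were taken from the F statistic, log2 CPM used a prior count of 2, and a group with at most 3 counts was set at 3 counts or given a counting interval. Groups were taken from the labels. Alternatives were DESeq2 1.42.0, its size factors, the edgeR likelihood ratio test, other filters, edgeR on 4 libraries, a replicate block and leaving out each library. The depth was 20134890 to 37296640 counts per library. Steps were tested on simulated data. Gene models and transcripts are from GENCODE M21 (GRCm38), which held 96.4% of the symbols.

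The 10 genes and all lists were chosen with earlier results of these data known. Named genes are the members, the other Sox and TCF/LEF genes, the target lists, and the 10 genes most like Sox11 or 3 most like another member. Genes of a list with values in the text, and marker genes named there, were picked after their values were seen. Some members of these lists and 1 sequence are not reported here.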

Additional observations from a re-analysis of the deposited data

How the results depend on the processing

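The count of members called rose from 0 in several settings. Between TEB-distal and nipple-proximal cells it was 3 with DESeq2 on the 4 libraries compared, 1 (Sox11) with DESeq2 on all 6 libraries and 1 (Sox11) with all genes of at least 1 count kept, where 2.29%, 0.743% and 0.133% of genes were called. For TEB-distal cells against the libraries labelled Gpr125-negative it was 2 with DESeq2 on 4 libraries, 3 with DESeq2 on 6, 1 with the edgeR likelihood ratio test and 1 with all genes kept (667, 943, 541 and 137 genes called). It ran from 0 to 1 when libraries were left out in turn, Sox11 being called without Gpr125-negative library 1 and without either nipple-proximal library (747, 45 and 46 genes called). For nipple-proximal cells it was 1 with DESeq2 on 4 libraries. It stayed at 0 in all 3 comparisons with DESeq2 size factors, the stricter filter, edgeR on 4 libraries and the replicate block. The deviations of same-numbered libraries correlated at -0.0347 (Gpr125-negative with TEB-distal), 0.194 (Gpr125-negative with nipple-proximal) and -0.00495 (TEB-distal with nipple-proximal). With 2 libraries in a group these values cannot settle whether same-numbered samples were paired. With DESeq2 size factors the median log2 fold change of all genes moved from 0.06 to 0.19 between the Gpr125+ populations and from 0.00 to -0.17 for nipple-proximal against Gpr125-negative libraries. The Sox11 share of SoxC counts in TEB-distal cells was 28.3% without length scaling against 18.6% with it. Of 367 alternative log2 fold changes of members, 19 moved by more than the spread within groups, 18 of them on leaving out a library, and 27 changed sign. Sox11 kept its sign in all of them, from 5.07 to 7.53 between the Gpr125+ populations. With a prior count of 0.5, 6 of the 10 genes most like Sox11 and 0 of the 3 most like Sox18 were kept. The causes were not tested. Sox6, Sox7, Sox13 and Sox17 had at most 3 counts in a whole group, so depth limits their values.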
